A study of Cricetulus griseus with 24 samples.

Results

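The heat shock proteins and their partner chaperones were followed in LR73 cells, a hamster line (Cricetulus griseus) used as a phagocyte, by RNA-seq. Members were taken by gene name, namely the HSP70, HSP90, HSP60 and small heat shock protein genes, the J-domain (DNAJ) genes and the Cct subunits, where the mean level reached 1 CPM (counts scaled to a common library size, with TMM factors) in at least 1 group. Of 26776 named genes, 78 carried such a name and 66 met that level. By the place where the protein is known to work, 36 of them are cytosolic or nuclear, 14 belong to the endoplasmic reticulum (ER), 9 to mitochondria and 7 to other sites. The level rule left out 12 genes, and the nearest outside it were Dnajc12 at 0.948 and Hspa12b at 0.749 CPM in their highest group, while the nearest inside were Dnajb3 at 1.71 and Dnaja4 at 2.0 CPM. Hspa1a, the stress-inducible HSP70 gene, was among those left out, with a highest group mean of 0.0482 CPM. Its near-identical copies can lose shared reads in counting, so this low value is uncertain. All 66 members were tested in both experiments.

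The study asked how a phagocyte responds to an apoptotic corpse and what the chloride transporter Slc12a2 contributes. The corpses came from Jurkat, a line of human T lymphocytes, irradiated with ultraviolet C (1500 mJ) and used 4 h later. A first set of 16 libraries crossed apoptotic cells (absent or present) with cytochalasin D (absent or present), at 4 libraries a group, and the group with neither is called control. The drug caps actin filaments and thereby prevents uptake of a corpse. A second set compared 4 wildtype with 4 Slc12a2-deficient libraries, and all of these phagocytes met apoptotic cells for 2 h and were sorted for CypHer5E, a dye that lights up in acid and marks engulfed targets. Neither genotype was therefore sampled without apoptotic cells. Not given in the sources used here are the way Slc12a2 was removed, whether the deficient line is 1 clone, and how long cells were co-cultured in the first experiment.

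Chaperones hold, fold, refold or hand on other proteins. HSP70 proteins bind short greasy stretches of a client in a cycle driven by ATP, J-domain proteins deliver the client and start the cycle, and HSP110 proteins end it by releasing the nucleotide. HSP90 finishes signalling proteins such as kinases and receptors, the ring-shaped TRiC complex built from Cct subunits and Tcp1 folds actin and tubulin, and small heat shock proteins hold clients without ATP. Each compartment keeps its own set, with heat shock factor 1 (Hsf1) as the known regulator in the cytosol and the unfolded protein response in the ER.

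Depth was 8275769 to 18917152 counts a library in the first experiment, against 23059998 to 28838553 in the second. Slc12a2 stood at 91.2 to 103 CPM in wildtype and at 22.4 to 26.2 CPM in deficient libraries. The labels call the cells fibroblasts, and Vim (4334 ± 191 CPM, SD, n = 4) and Fn1 (1027 ± 82.3 CPM, n = 4) were abundant in control libraries, while the collagen genes Col1a1 and Col1a2 had group means of at most 0.138 CPM. Across the first experiment, 3 libraries stood apart on the third principal component (control library 4, cytochalasin D library 1, and library 4 of apoptotic cells with cytochalasin D), and counts that change without them are given below. In bulk RNA, fewer cells of a type and less RNA per cell cannot be told apart. Levels were set side by side but not tested across the 2 experiments, which were made and counted separately.

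A few members held most of the chaperone counts. In control libraries, Hsp90ab1, Hsp90b1 and Hspa8 together made 39.8% of the members' summed level, and with Hsp90aa1, Hspd1 and Hspa5 the share reached 59.6%. The 7 Cct subunits brought it to 81.5%. On a level per length, Hsp90ab1, the constitutive cytosolic HSP90, came first in control libraries at 1436.2 CPM per kb. Hspa8, the constitutive HSC70, followed at 1354.0 CPM per kb, and Hsp90b1, the ER form of HSP90 also called GRP94, at 941.5 CPM per kb. Hspd1, the mitochondrial HSP60, stood at 659.9 and Hspa5, the ER form of HSP70 also called BiP, at 491.9 CPM per kb. The Cct subunits lay close to one another on this scale, from 236.5 for Cct2 to 444.0 for Cct3. At the other end, 14 members lay under 10 CPM. The median coefficient of variation between libraries of a group was 3.19% for values of at least 100 CPM and 14.6% for values under 10 CPM, so the precision of the low members is much lower.

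**Figure D1:**
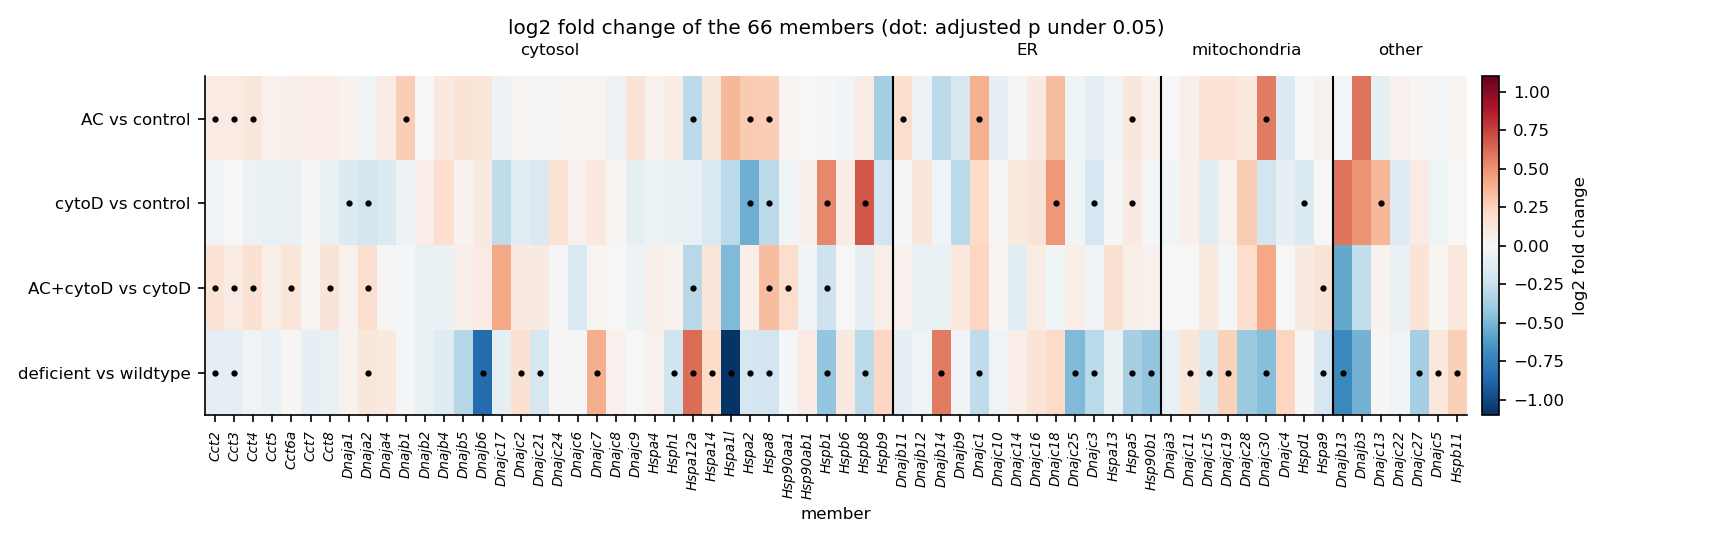
Heat map of the log2 fold change of each of the 66 members (columns, by compartment) in 4 comparisons (rows), where AC is apoptotic cells and cytoD cytochalasin D. Red is higher and blue lower in the first-named group, and a dot marks an adjusted p under 0.05. The row for genotype holds most dots, 30 of 66 members (45.5%) against 11 (16.7%) in each of the other 3 rows. Of all genes tested, 42.5% were called for genotype. In the other rows, from the top, 13.7%, 26.3% and 8.61% of all genes were called.

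With apoptotic cells and no drug, a small set of members was higher by small amounts. It held Hspa8, which had the lowest adjusted p, the J-domain proteins Dnajb1 and Dnajb11, the ER chaperone Hspa5 and some Cct subunits, while HSP90 genes did not pass the test. The corpses are human, and the counts do not separate human reads that align to a conserved hamster gene from hamster reads, so a higher value in libraries with apoptotic cells can hold RNA of either species, and the human share was not tested. Of 66 members, 10 rose and 1 fell at an edgeR adjusted p under 0.05, against 6.97% of all 13106 genes tested that rose and 6.68% that fell. The members' median log2 change was 0.04, and that of all genes 0.003. No called member reached 1.5-fold, beside 338 called genes of all 13106.

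Hspa8, which folds new proteins and strips clathrin from vesicles, stood at 2291, 2382, 2315 and 2543 CPM in the 4 control libraries. With apoptotic cells it stood at 2836, 2867, 2867 and 2932 CPM. The 2 groups did not overlap, and the libraries with apoptotic cells lay close together. The level was 1.21-fold higher (log2 0.27 ± 0.03 SE, edgeR adjusted p = 1.15e-05).

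Dnajb1, the J-domain partner known as HSP40, stood at 53.1, 53.1, 55.4 and 50.3 CPM in control and at 61.8, 61.2, 64.7 and 67.1 CPM with apoptotic cells. The groups did not overlap, and the change was 1.2-fold (edgeR adjusted p = 0.00786). Hspa5 rose from 1148 ± 31.7 to 1248 ± 19.5 CPM (n = 4 each), a 1.09-fold change (edgeR adjusted p = 0.0083). These calls and that of Hspa8 held under all 18 alternatives other than a minimum fold. Hspa2, an HSP70 known best from the testis, was 1.22-fold higher and Dnajb11, a cofactor of Hspa5, 1.14-fold higher. Weakly expressed J-domain genes that were higher too are the mitochondrial Dnajc30 (1.48-fold, 5.12 to 7.63 CPM, with overlapping groups) and the ER membrane protein gene Dnajc1 (1.31-fold, 6.39 to 8.39 CPM). The member that fell was Hspa12a, a distant HSP70 relative, from 16.9 to 13.8 CPM (1.22-fold, edgeR adjusted p = 0.0306).

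The Cct subunits shifted by little and all in 1 direction. Each of the 7 had a log2 change above 0, from 0.05 to 0.12, and 3 of 7 passed the test: Cct4 (1.09-fold), Cct2 and Cct3 (1.06-fold each). Tcp1, the subunit that the name rule does not take and that was picked here after its values were seen, rose from 914 ± 29.7 to 1031 ± 8.20 CPM (1.13-fold, edgeR adjusted p = 0.000633). None of the 3 HSP90 genes passed the test with edgeR, nor did any reach an unadjusted p under 0.05. Hsp90aa1, the inducible cytosolic form, stood at 1687 ± 92.8 and 1707 ± 37.6 CPM (log2 0.02), Hsp90ab1 at 3467 ± 152 and 3451 ± 84.9 CPM (log2 -0.01), and Hsp90b1 at 2674 ± 45.6 and 2750 ± 30.6 CPM (log2 0.04). Hsph1, an HSP110, had a log2 change of 0.08, Hspa9, the mitochondrial HSP70, of 0.04, and Hspd1 of -0.00, and none of these passed the test.

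Several of these calls were narrow. The count of 10 fell to 4 without control library 2 or 4 or apoptotic library 1 or 4, and to 5 without control library 1, without apoptotic library 3, or without the 3 libraries that stood apart. The Cct count of 3 fell to 1 without any 1 library other than apoptotic library 4, and to 0 without that one, and the call of Cct2 was lost without any 1 library. Dnajc1 lost its call without any library but apoptotic library 2, Hspa12a without any but control 2 and apoptotic 1, and Hspa2 without any but control 3 and apoptotic 2. Dnajb11 lost it without control 2 or 4 or apoptotic 1, 3 or 4, and Dnajc30 without control 1, 2 or 4 or apoptotic 1 or 2. Other processing choices cost calls as well. Over all 18 alternatives other than a minimum fold, Cct2 lost its call in 16, Dnajc1 in 15 and Hspa12a in 11. Dnajb11 lost it in 9, and Hspa2 and Dnajc30 in 7 each. Some markers of the apoptotic cells moved with this comparison. Of 15 T lymphocyte genes, 9 to 11 had a count in libraries with apoptotic cells and 4 to 7 in control, and their summed share was 50.1 to 53.2 ppm against 43.4 to 47.0 ppm. Lck stood at 2.88 to 3.55 CPM with apoptotic cells and at no more than 0.104 CPM in control, while Cd2, Cd3g and Cd5 were at 0 in all 24 libraries. The summed share of 11 fibroblast genes was 5292 to 5731 ppm in control and 6398 to 6784 ppm with apoptotic cells. Vim was the largest gene of that sum in each library. Of the 6 fibroblast genes tested with edgeR, 1 was called higher and 0 lower. At an unadjusted p under 0.05, 1 was higher and 1 lower. The part of either list in the chaperone values was not tested.

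Among genes that work with chaperones, co-chaperones and prefoldins gave 4 higher and 3 lower of 39 tested. Ahsa1, which speeds up HSP90, rose 1.14-fold, and Cdc37, which brings kinases to HSP90, 1.17-fold. Fkbp5, an HSP90 partner of steroid receptors, fell 1.14-fold. Of 12 genes around heat shock factor regulation, 2 rose, among them Hmox1 (1.22-fold), and 1 fell, the Hsf1 inhibitor Hsbp1 (1.13-fold), while Hsf1 itself stood at 204 ± 8.82 and 214 ± 11.7 CPM without a call. In the ER folding list, 3 rose and 2 fell of 37. They were Sec61b (1.39-fold), Atf6b (1.25-fold) and Pdia4 (1.09-fold) on the one side, and Atf4 (1.45-fold) and Ppp1r15a (1.21-fold) on the other. None of 18 mitochondrial folding and import genes passed the test with edgeR, and 3 had an unadjusted p under 0.05. Beside these lists, 6.97% of all genes rose and 6.68% fell.

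**Figure D2:**
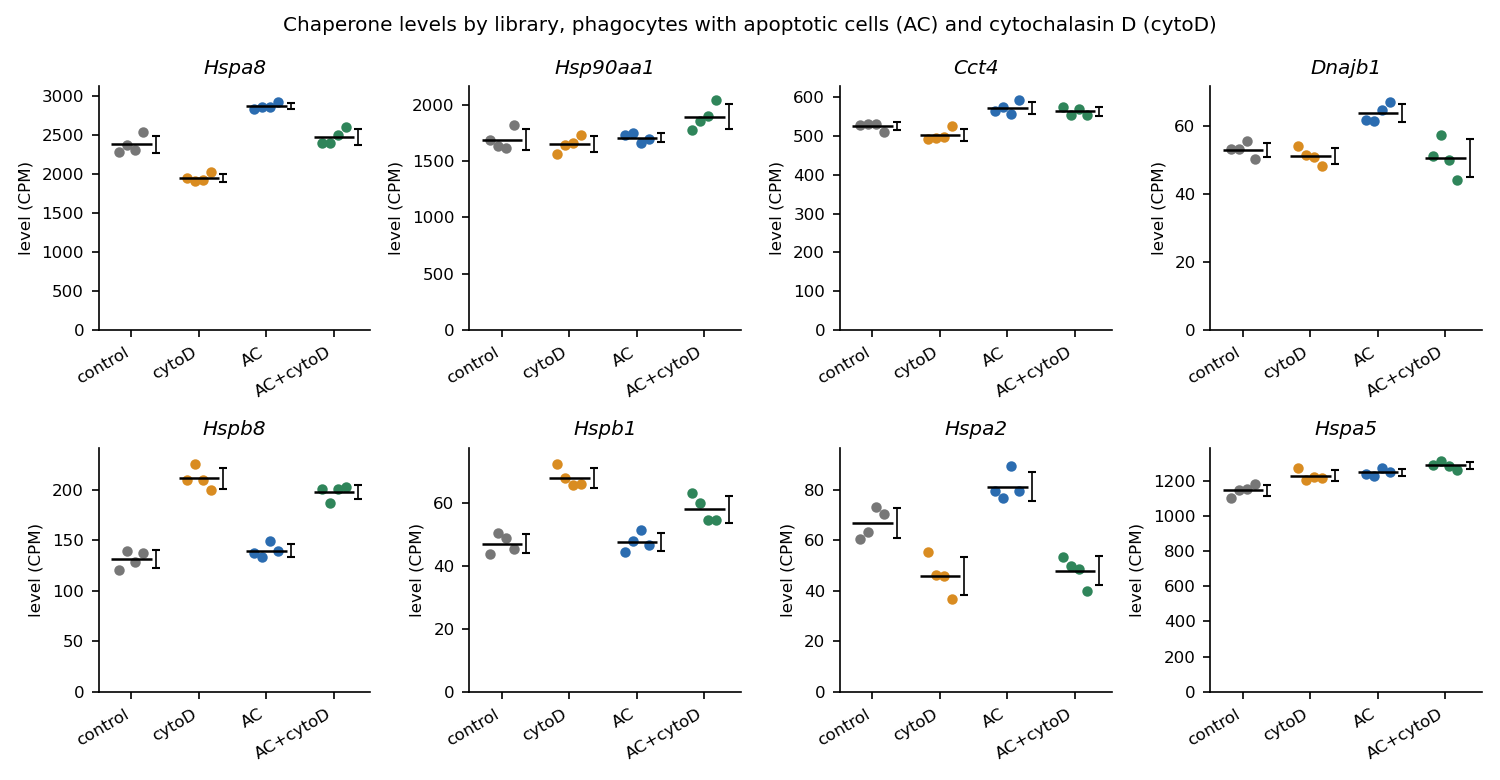
Level (CPM, linear axis from 0) of 8 members in each library of the first experiment; points are libraries, the line is the mean and the bar at its side the SD (n = 4). Hspa8 is lowest with cytochalasin D and highest with apoptotic cells (AC), and Hspb8 and Hspb1 are high in both groups with cytochalasin D.

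Cytochalasin D alone moved chaperones in both directions. The small heat shock proteins Hspb8 and Hspb1 rose, Hspa8 and Hspa2 fell, and no Cct subunit passed the test with edgeR (3 had an unadjusted p under 0.05). Of 66 members, 5 rose and 6 fell, against 13.5% of all genes that rose and 12.8% that fell, so the members' shares of 7.58% and 9.09% lay below the background. The members' median log2 change was -0.02, and that of all genes 0.01.

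Hspb8, which works with Bag3 in clearing damaged filaments, stood at 121, 140, 128 and 137 CPM in control and at 210, 225, 210 and 200 CPM with the drug. The groups did not overlap, and the change was 1.61-fold (log2 0.69 ± 0.05 SE, edgeR adjusted p = 2.63e-10), the one called member past 1.5-fold among the comparisons of the first experiment. Of all 13106 genes, 660 were called at that size with the drug alone. Hspb1, known as HSP27 and as a binder of actin, stood at 43.7, 50.3, 48.9 and 45.3 CPM in control and at 72.4, 67.9, 65.5 and 65.8 CPM with the drug. It was 1.44-fold higher, again with no overlap (edgeR adjusted p = 1.11e-06). The other 3 small heat shock genes did not pass the test, and the count of 2 held under the 18 alternatives other than a minimum fold. Bag3 itself was 1.21-fold higher with the drug, from 102 ± 6.51 to 124 ± 6.83 CPM (edgeR adjusted p = 0.000733).

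Dnajc13, a J-domain protein of endosomes, was 1.29-fold higher, from 185 ± 5.14 to 238 ± 3.89 CPM (edgeR adjusted p = 9.60e-07). Hspa5 stood at 1105, 1149, 1155 and 1181 CPM in control and at 1276, 1204, 1223 and 1215 CPM with the drug, a 1.07-fold change whose call was lost without control library 1 or cytochalasin D library 1. Dnajc18, at 6.10 and 8.55 CPM, was 1.39-fold higher, and its call was lost without control library 3 or 4 or cytochalasin D library 1 or 2.

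Hspa8 stood at 1950, 1919, 1927 and 2026 CPM with the drug, below each control library. It was 1.22-fold lower (log2 -0.29 ± 0.03 SE, edgeR adjusted p = 8.43e-07). Hspa2 was 1.45-fold lower, at 55.4, 46.2, 45.7 and 36.9 CPM against 60.5, 63.4, 73.1 and 70.3 CPM in control (edgeR adjusted p = 0.000172). The J-domain partners of Hspa8 followed in part. Dnaja2 was 1.15-fold lower, and Dnaja1 1.11-fold lower, with a call that was lost without control library 1 or 4 or cytochalasin D library 2 or 3. Hspd1 was 1.11-fold lower and overlapped with control, at 1253, 1262, 1271 and 1377 against 1433, 1365, 1419 and 1508 CPM. In the ER, Dnajc3, an inhibitor of eIF2-alpha kinases known as p58IPK, was 1.14-fold lower. HSP90 genes and Hsph1, Hspa9, Dnajb1 and Cct2 did not pass the test. Tcp1, outside the name rule, stood at 841, 838, 831 and 871 CPM with the drug. In control it stood at 905, 883, 915 and 954 CPM, without overlap. Without cytochalasin D library 4 the number of members that fell was 10 and included 3 Cct subunits (DESeq2 called 1), and without cytochalasin D library 1 the number that rose was 3. The T lymphocyte list stood at 36.7 to 44.1 ppm with the drug and the fibroblast list at 4014 to 4582 ppm, against 43.4 to 47.0 and 5292 to 5731 ppm in control, and their part in these values was not tested. Neither group held apoptotic cells.

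Of 12 heat shock factor genes, 5 rose and 1 fell, led by Atf3 (5.61-fold) and Hmox1 (1.91-fold). These are shared stress targets as well as heat shock targets. The collagen chaperone Serpinh1 fell 1.11-fold, and Hsf1 stood at 207 ± 9.40 CPM against 204 ± 8.82 CPM. Of 37 ER folding genes, 9 rose and 2 fell, with Ddit3 (2.06-fold), Atf4 (1.43-fold) and the kinase Eif2ak3 (1.33-fold) highest. Of 39 co-chaperones, 5 rose and 5 fell, including Pdcl3, a phosducin-like partner of the Cct ring, 1.69-fold higher and Fkbp5 1.60-fold lower. Of 18 mitochondrial genes, 2 rose, namely Pam16 (1.17-fold) and Clpb (1.1-fold). Beside these lists, 13.5% of all genes rose and 12.8% fell, and the co-chaperone counts lay near those shares.

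Under cytochalasin D, the levels of Hspa8, Hsp90aa1 and most Cct subunits were higher with apoptotic cells. Here too the counts do not separate human from hamster reads, and the human share was not tested. This comparison shares no library with that of apoptotic cells against control, but it shares its cytochalasin D libraries with the comparison above. Of 66 members, 9 rose and 2 fell, against 4.82% and 3.79% of all genes. The members' median log2 change was 0.05, and that of all genes -0.01. None of 14 ER members passed the test with edgeR or DESeq2 (3 had an unadjusted p under 0.05), and 1 did without cytochalasin D library 4.

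Hspa8 stood at 2403, 2399, 2510 and 2609 CPM with apoptotic cells and the drug, above each library with the drug alone. The change was 1.27-fold (log2 0.34 ± 0.03 SE, edgeR adjusted p = 4.47e-07). Over the 4 groups, Hspa8 was lowest with cytochalasin D and highest with apoptotic cells, and the groups in between, control and apoptotic cells with the drug, overlapped. Hsp90aa1 stood at 1565, 1645, 1662 and 1734 CPM with the drug and at 1774, 1855, 1895 and 2037 CPM once apoptotic cells were added. The groups did not overlap, and the change was 1.14-fold (edgeR adjusted p = 0.00411).

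Of the 7 Cct subunits, 5 rose and all 7 had a log2 change above 0, with a median of 0.14. Cct4 stood at 492, 493, 497 and 526 CPM with the drug and at 574, 554, 569 and 553 CPM with apoptotic cells added (1.12-fold, edgeR adjusted p = 0.00229). Cct2 was 1.11-fold higher, from 449 ± 6.54 to 500 ± 9.59 CPM (edgeR adjusted p = 0.00148). Cct8, Cct6a and Cct3 were 1.1-, 1.1- and 1.07-fold higher, while Cct5 (log2 0.07) and Cct7 (log2 0.03) did not pass the test. Tcp1 was 1.16-fold higher, from 845 ± 17.6 to 978 ± 26.8 CPM (edgeR adjusted p = 9.46e-05). The count of 5 was 3 to 5 over the 18 alternatives other than a minimum fold, and was 3 at an adjusted p under 0.01, without cytochalasin D library 2, without library 3 of apoptotic cells with the drug, or without the 3 libraries that stood apart.

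The other members that moved were few. Dnaja2 was 1.13-fold higher and Hspa9 1.1-fold higher. Hspa12a was 1.24-fold lower, from 15.9 to 12.9 CPM, and Hspb1 1.17-fold lower, from 67.9 ± 3.18 to 58.0 ± 4.24 CPM. Each of these 4 calls was lost without cytochalasin D library 2. With combined standing for apoptotic cells with the drug, Dnaja2 lost its call without any 1 library but cytochalasin D 4 and combined 1, and Hspa12a without any but cytochalasin D 3 and combined 2. Hspb1 also lost it without cytochalasin D 1 or combined 3 or 4, and Hspa9 without cytochalasin D 3 or combined 4. Cct8 lost it without cytochalasin D 2 or combined 3. The count of 9 fell to 5 without cytochalasin D library 2, or without the 3 libraries that stood apart, and was 6 without cytochalasin D library 3 or library 3 or 4 of apoptotic cells with the drug. Hspb8 stayed high in both drug groups, at 198 ± 7.15 CPM with apoptotic cells and 212 ± 10.4 CPM without. Of the T lymphocyte list, 10 to 12 of 15 genes had a count with apoptotic cells and the drug and 4 to 5 with the drug alone. Their summed share was 47.8 to 53.5 ppm against 36.7 to 44.1 ppm, and Lck stood at 2.21 to 3.86 CPM against 0 in each library with the drug alone. The fibroblast list stood at 4052 to 4517 ppm against 4014 to 4582 ppm. The part of the T lymphocyte genes in the chaperone values was not tested.

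Among the partner lists, co-chaperones gave 2 higher, Tcp1 and the import receptor Tomm70a (1.2-fold), and 1 lower of 39, Unc45a (1.13-fold). In the ER folding list none rose with edgeR (2 had a higher level at an unadjusted p under 0.05) and 2 fell of 37, namely Atf4 (1.5-fold) and Herpud1 (1.25-fold). Of 12 heat shock factor genes, Hmox1 rose 1.15-fold, and Atf3 (1.60-fold) and Hsbp1 (1.11-fold) fell. Of 18 mitochondrial genes 1 rose, the import receptor Tomm20 (log2 0.12), and 1 fell, Timm44 (log2 -0.18). Beside these lists, 4.82% of all genes rose and 3.79% fell.

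**Figure D3:**
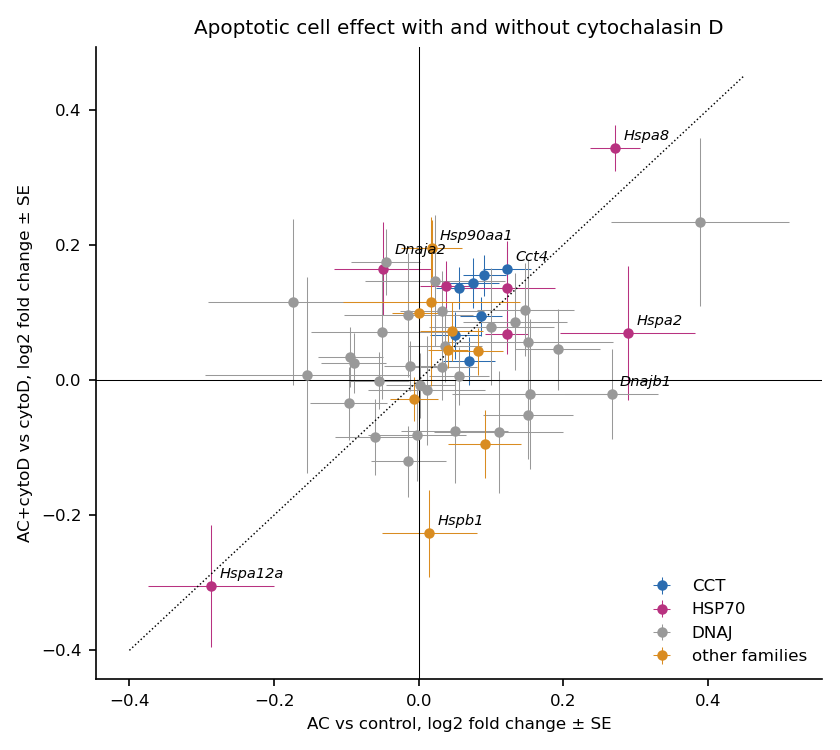
Log2 fold change of 54 members with at least 10 CPM in some group, for apoptotic cells without (x) and with (y) cytochalasin D; bars are the SE, the dotted line marks equal effects. The 7 Cct subunits (blue) and Hspa8 lie above 0 on both axes, Dnajb1 lies to the right of the dotted line and Hsp90aa1 above it.

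The difference between these 2 effects was tested as an interaction, which asks whether the drug changes the response. Blocked engulfment cannot be told apart here from other effects of the drug. No member passed the test in either direction with edgeR, against 3.03% and 1.53% of all genes. At an unadjusted p under 0.05 there were 8 members, 12.1% against 21.5% of all genes, and DESeq2 gave 1 higher and 1 lower. Of the members called higher, Hspa8, Cct2, Cct3 and Cct4 were called both without and under the drug. The call of Hspa12a as lower was shared as well. The same overlap was not counted over all genes, so it is no result particular to the members. Without the drug, the call of Cct2 was lost in 16 of 18 alternatives other than a minimum fold. Hspa8 differed by log2 0.07, with a 95% interval of -0.02 to 0.17. Dnaja2 came nearest to the threshold, at log2 -0.05 without and 0.17 under the drug (edgeR adjusted p = 0.0648 for the difference). Dnajb1 was at 0.27 and -0.02 (edgeR adjusted p = 0.0748, and 0.0335 to 0.407 over the alternatives), and Hsp90aa1 at 0.02 and 0.19 (edgeR adjusted p = 0.0838, and 0.0265 to 0.511). Without cytochalasin D library 4 the interaction gave 3 members higher and 2 lower, and without library 1 of apoptotic cells with the drug 2 higher. Library 2 of control and library 2 of apoptotic cells with the drug, left out in turn, gave 1 higher and 1 lower, respectively. Among partner genes the interaction called Vbp1 higher (log2 0.41) and Unc45a (-0.29) and Ahsa1 (-0.25) lower of 39 co-chaperones, 1 gene lower of 12 heat shock factor genes, and Yme1l1 higher (0.28) of 18 mitochondrial genes. It called none of 37 ER folding genes with edgeR, where 10 had an unadjusted p under 0.05.

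Among engulfing phagocytes, loss of Slc12a2 went with lower levels of the main ER chaperones and of several HSP70 genes. Hsp90b1, Hspa5 and the J-domain gene Dnajb6 fell most among abundant members, while Hspa12a, Dnajc7 and Dnajb14 rose. Of 66 members, 10 rose and 20 fell, against 21.1% and 21.3% of all 13050 genes tested. The members' median log2 change was -0.05, and that of all genes -0.002. Falls made up 30.3% of the members and rises 15.2%. Called with a change of at least 1.5-fold were 4 of 66 members, beside 1595 of all 13050 genes.

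Hsp90b1 stood at 3900, 3704, 3721 and 3807 CPM in wildtype and at 2850, 2769, 2771 and 2834 CPM in deficient libraries. The groups were far apart, and the level was 1.35-fold lower (log2 -0.43 ± 0.04 SE, edgeR adjusted p = 2.82e-07). Hspa5 stood at 1458, 1371, 1388 and 1413 CPM in wildtype and at 1146, 1125, 1063 and 1026 CPM in deficient libraries, 1.29-fold lower (edgeR adjusted p = 8.21e-06). Dnajc3, the cofactor of Hspa5, was 1.23-fold lower (149 ± 3.10 to 121 ± 6.03 CPM). Of 14 ER members, 5 fell and 1 rose. Dnajc25 fell 1.4-fold and Dnajc1 1.21-fold, and Dnajb14 was 1.48-fold higher at a low level (4.17 to 6.18 CPM). The count of 5 held under each of the 15 alternatives other than a minimum fold. Hspa13, Dnajb11, Dnajb9 and Dnajc10, further ER members chosen here after their values were seen, did not pass the test, with log2 changes from -0.10 to -0.03.

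The wider ER folding list followed the same side. Of 37 genes, 19 fell and 4 rose, with a median log2 change of -0.17 beside -0.002 for all genes. The disulfide isomerase Pdia4 fell 1.66-fold, from 545 ± 21.7 to 328 ± 10.1 CPM. Ppp1r15a, a phosphatase subunit that reverses eIF2-alpha phosphorylation, fell 3.02-fold, and the ER stress sensor Atf6b fell 1.72-fold. The genes that rose included Eif2ak3 (1.32-fold), Fkbp14 (1.13-fold) and Ero1l (1.11-fold). These lists were chosen with earlier results of these data known.

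Of 8 HSP70 members, 5 fell and 2 rose, and at an adjusted p under 0.01, 3 fell. Hspa8 stood at 2911, 3026, 3287 and 3336 CPM in wildtype and at 2501, 2435, 2952 and 2958 CPM in deficient libraries. The groups overlapped as wholes, but within the libraries numbered 9 to 12 and within those numbered 13 to 16 (2 of each genotype) every deficient library lay below both wildtype libraries. The log2 change was -0.27 in the first set and -0.16 in the second. Over all libraries it was 1.16-fold (edgeR adjusted p = 0.0188), and the call was lost without wildtype library 13 or 14 or without deficient library 11. With the set as a term in the fit, added after seeing the data because the sets parted on the second principal component, the edgeR adjusted p was 7.52e-05 for Hspa8 (7.52e-05 to 0.0715 over the alternatives). That fit called 11 members higher and 21 lower. The 30 members called without the term each had the same direction in both sets. They were called on these same libraries, which largely fixes that outcome, so it is no separate check. Hspa2 was 1.14-fold lower and Hspa9 also 1.14-fold lower, from 638 ± 15.9 to 561 ± 16.6 CPM. Hspa1l, under 3 CPM in each group, was 2.12-fold lower. Hspa14, which acts at the ribosome, was 1.15-fold higher, and Hspa12a was 1.53-fold higher, at 9.97, 10.8, 9.08 and 11.3 CPM in wildtype and 16.3, 16.1, 14.7 and 15.7 CPM in deficient libraries (edgeR adjusted p = 1.91e-05).

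Dnajb6, a J-domain protein that keeps aggregation-prone proteins apart, stood at 175, 168, 192 and 189 CPM in wildtype and at 101, 100, 101 and 101 CPM in deficient libraries. It was 1.8-fold lower (log2 -0.84 ± 0.05 SE, edgeR adjusted p = 1.75e-09), the largest fall among members above 4 CPM. In the first experiment its group means lay between 59.4 and 68.1 CPM, and none of the comparisons there called it. Dnajc7, a co-chaperone of HSP70 and HSP90, stood at 111, 108, 108 and 108 CPM in wildtype and at 134, 139, 150 and 150 CPM in deficient libraries (1.32-fold, edgeR adjusted p = 5.49e-06). Of 40 J-domain members, 9 fell (22.5%) and 7 rose (17.5%), near the 21.3% and 21.1% of all genes.

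The cytosolic HSP90 genes did not pass the edgeR test, though Hsp90ab1 did without deficient library 11 (edgeR adjusted p = 0.044). Hsp90aa1 stood at 2918 ± 61.4 and 2897 ± 46.3 CPM (log2 -0.01, 95% interval -0.09 to 0.06), and Hsp90ab1 at 3395 ± 148 and 3609 ± 178 CPM (log2 0.09). Hsph1 was 1.16-fold lower, from 459 ± 15.0 to 394 ± 15.4 CPM (edgeR adjusted p = 0.000844). The small heat shock genes Hspb1 (1.34-fold) and Hspb8 (1.23-fold) were lower, and Hspb11, a ciliary transport gene by its other name Ift25, was 1.2-fold higher. Of the Cct subunits, Cct2 and Cct3 were 1.07- and 1.08-fold lower. Without deficient library 15 there was 1 Cct call and without any other library 0. Tcp1, outside the name rule, leaned the other way with overlapping groups. It stood at 1088, 1096, 1175 and 1164 CPM in wildtype and at 1149, 1198, 1223 and 1259 CPM in deficient libraries. Dnajb1 stood at 46.4 ± 2.84 and 45.6 ± 3.03 CPM with no call.

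In mitochondria, 3 members fell and 2 rose of 9. Besides Hspa9, Dnajc30 (1.38-fold) and Dnajc15 (1.12-fold) were lower, and the import gene Dnajc19 (1.19-fold) and Dnajc11 (1.1-fold) were higher. Hspd1 stood at 2042, 2054, 2204 and 2206 CPM in wildtype and at 2097, 2103, 2220 and 2140 CPM in deficient libraries, with a log2 change of 0.01. Of 18 further mitochondrial folding and import genes, 6 rose and 3 fell. The proteases Clpp (1.85-fold) and Lonp1 (1.75-fold) rose, and Atf5, a transcription factor of the mitochondrial unfolded protein response, fell 2.39-fold. Co-chaperones gave 12 higher and 8 lower of 39, among them Stub1 (1.26-fold higher), Bag2 (1.27-fold higher) and Ahsa1 (1.24-fold lower). Of 12 heat shock factor genes, 2 rose, the Hsf1 inhibitor Hsbp1 (log2 0.39) and Hsf1 itself (1.21-fold). The 3 that fell were Atf3 (log2 -0.70, from 1.91 to 1.17 CPM), Hsf2 (1.17-fold) and Serpinh1 (log2 -0.15). Beside all counts of this paragraph, 21.1% of all genes rose and 21.3% fell.

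Of the T lymphocyte list, 5 to 8 genes of 15 had a count in wildtype and 5 to 6 in deficient libraries. Its summed share was 36.9 to 40.6 ppm in wildtype and 30.5 to 37.9 ppm in deficient libraries, Zap70 was at 0 in all 8 libraries and Lck at no more than 0.157 CPM. Tcf7, the largest gene of the sum, stood at 15.2 to 17.3 CPM in wildtype and at 17.2 to 20.6 CPM in deficient libraries. Lat stood at 9.75 to 12.2 CPM in wildtype and at 4.28 to 5.72 CPM in deficient libraries. The fibroblast list stood at 4143 to 4398 and 3869 to 4189 ppm. The part of either list in the chaperone values was not tested.

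**Figure D4:**
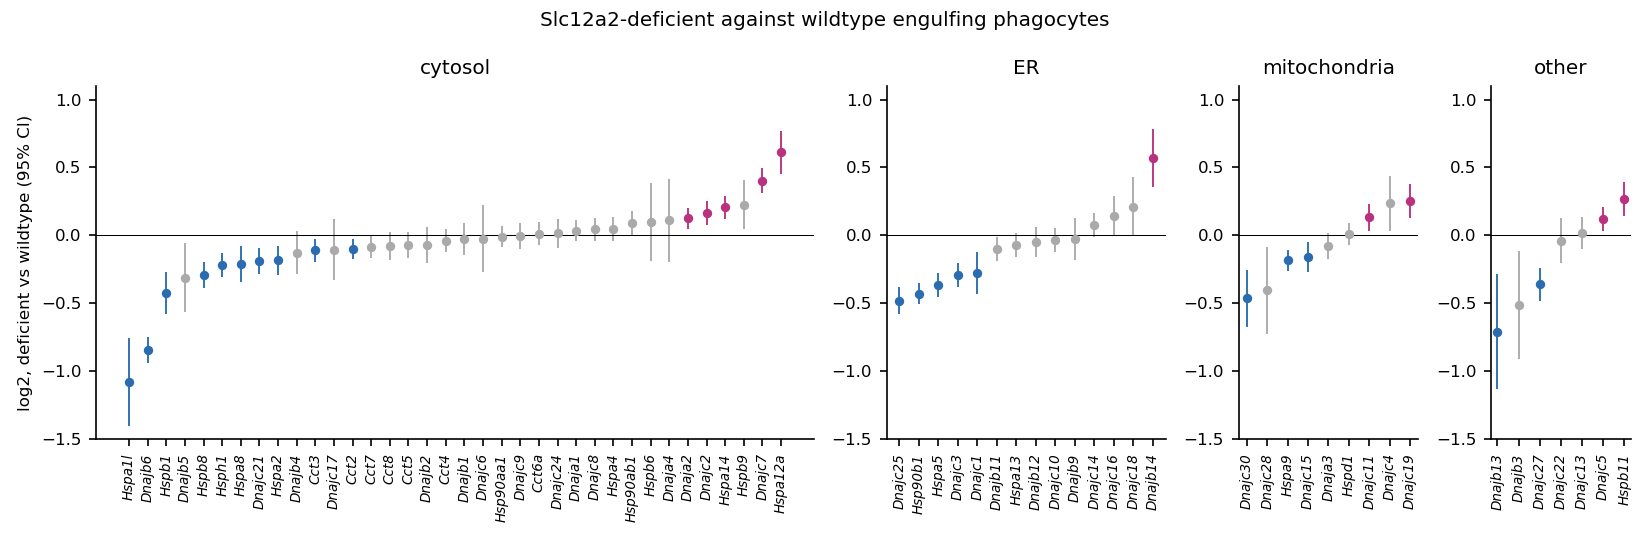
Log2 fold change of each member, Slc12a2-deficient against wildtype, by compartment, with 95% intervals; blue is lower and pink higher at an adjusted p under 0.05, grey not called. Among ER members Dnajc25, Hsp90b1, Hspa5, Dnajc3 and Dnajc1 lie below 0 and Dnajb14 above.

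The share of all counts in the 66 members summed up these shifts and was described without a test. It was 2.18 ± 0.0441% in control, 2.07 ± 0.0471% with cytochalasin D, 2.27 ± 0.0286% with apoptotic cells and 2.19 ± 0.0490% with both (SD, n = 4 each). In the second experiment it was 2.80 ± 0.0497% in wildtype and 2.56 ± 0.0308% in deficient libraries. The ER members held 0.609 to 0.636% of counts in wildtype and 0.461 to 0.490% in deficient libraries, without overlap, while the mitochondrial ranges, 0.308 to 0.326% and 0.302 to 0.314%, overlapped. Hsp90b1 and Hspa5 led the ER sum, at 3783 and 1408 CPM in wildtype, and Dnajc10 came next at 346 CPM. The ER share thus largely repeats the falls of Hsp90b1 and Hspa5, and 8 of 14 ER members were not called. The small heat shock genes held 0.0194 to 0.0216% of counts in control and 0.0286 to 0.0312% with cytochalasin D. Their range with apoptotic cells and the drug, 0.0270 to 0.0279%, also lay above that with apoptotic cells alone, 0.0207 to 0.0220%. Hspb8 and Hspb1 led this sum, at 132 and 47.1 CPM in control, and Hspb11 came next at 13.1 CPM.

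**Figure D5:**
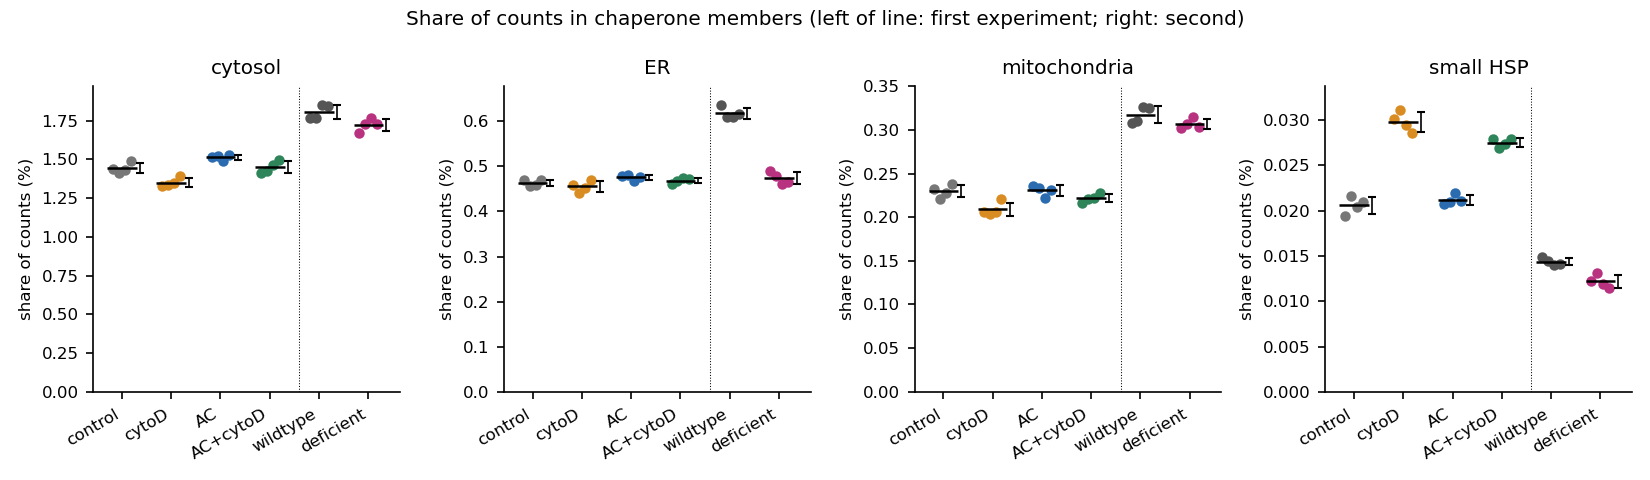
Share of counts (%, linear axis from 0) in cytosolic, ER, mitochondrial and small heat shock members for each of the 24 libraries; points are libraries, the line is the mean and the side bar the SD (n = 4), and the dotted line parts the 2 experiments. ER shares of wildtype libraries lie above all others, and small heat shock shares are highest in the cytochalasin D groups.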

How the data were processed

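RNA was measured in 24 libraries of total RNA, read as 75 bp pairs per the labels' protocols. The deposited values are unnormalised counts of fragments for each gene name from featureCounts 1.5.0, per the file headers. Only exons and fully aligned pairs entered the counts, without a strand or multi-mapping option, so near-identical copies and overlapping or antisense genes cannot be separated. STAR and FastQC are named in the submitters' processing notes. Not given in the sources used here are their versions and the genome build. A row without a gene name was left out.

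Each experiment was fitted by itself in R 4.3.3 by edgeR's (4.0.16) quasi-likelihood F test on group alone, after filterByExpr (counts of 10 and, in total, 15) and TMM scaling, over all 16 libraries of the first and all 8 of the second. Called means an adjusted p (Benjamini-Hochberg, over all genes tested) under 0.05. CPM is TMM-scaled, shares and ppm use raw counts, and intervals are at 95%. The depth of 8275769 counts or more put the level of 3 counts at 0.104 to 0.363 CPM. The design text calls the replicates biological. Their numbers were not used to pair the libraries of the first experiment in the main fit (see the closing section), and the genotypes share no number. In the second experiment the libraries numbered 9 to 12 and 13 to 16 parted on the second principal component, and what the numbers stand for is not stated.

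Members, the 4 partner lists (co-chaperones, heat shock factor regulation, ER folding, mitochondrial folding), the markers and the compartments were chosen with earlier results of these data known. Named in each comparison were 10 fixed members and up to 6 called members per direction with the largest change and at least 4 CPM, plus up to 3 genes per list and direction. Further members are named as values. Of 66 members, 63 had an entry in the RefSeq gene table. A gene of the heat shock factor list is not reported here by name. Hspe1 was not analysed here, and no sequences are shown. Alternatives were DESeq2 1.42.0, relative log expression factors, other filters, thresholds and sample sets, a length correction, a replicate block, the number set as a term (added after seeing the data) and each library left out. The fits were tested on simulated data.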

Additional observations from a re-analysis of the deposited data

Results flagged for a closer look

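Among 186 groups of 4 libraries (31 named members in 6 groups), 15 had 1 library far from the other 3, where chance gives about 1 in 20. Values are levels in CPM. Dnajc30 stood at 6.64 in control library 3 against 4.55 to 4.68 in the others, and at 3.73 in deficient library 16 against 4.89 to 5.02. Dnajc18 stood at 6.01 in deficient library 12 against 8.08 to 8.41. Cct8 stood at 554 in deficient library 16 against 643 to 658, and Dnaja1 at 245 in that library against 254 to 256. Cct4 stood at 510 in control library 4 against 528 to 531, and at 526 in cytochalasin D library 4 against 492 to 497. Cct2 stood at 469 in control library 1 against 461 to 462. Hspd1 stood at 1377 in cytochalasin D library 4 against 1253 to 1271. Hspa9 stood at 461 in library 4 of apoptotic cells with cytochalasin D against 429 to 433, and Hspb8 at 187 in library 2 of that group against 201 to 203. Hsp90b1 stood at 2705 in apoptotic library 3 against 2760 to 2768. Dnajc13 stood at 192 in control library 4 against 181 to 183, and at 244 in wildtype library 9 against 259 to 261. Dnajc7 stood at 111 in wildtype library 9 against 108 in the other 3.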

How the results depend on the processing

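Among the fixed members and the up to 6 called members per direction, no call changed direction under any alternative that was run. The other called members were not checked for this. Of 1414 values of named members under alternatives other than a minimum fold, 1273 kept their side of the threshold, 129 lost the call and 12 gained one. Counts below are members higher and lower. With an adjusted p under 0.01, apoptotic cells against control gave 3 and 0, cytochalasin D 3 higher, and apoptotic cells under the drug 5 and 0. With a change of at least 1.5-fold, by construction, the first gave 0 and 0, the drug 1 and 0, apoptotic cells under the drug 0 and 0, and genotype 1 and 3. In the same order, 338, 660, 203 and 1595 of all genes were called at that size. Without a filter on low counts, apoptotic cells gave 0 lower, apoptotic cells under the drug 1 lower and the interaction 1 higher. The fit on only the groups compared gave 1 lower under the drug, the length correction 0 lower for apoptotic cells, and DESeq2 1 higher and 1 lower for the interaction. The cause of these shifts was not tested. In the first experiment, same-numbered libraries of different groups deviated together in 3 of 24 pairs (correlation over 0.1, range -0.06 to 0.23). Of pairs with different numbers, 7 of 72 did (range -0.27 to 0.17). The medians were 0.005 and -0.006, though the highest correlation was of a same-numbered pair. Whether the numbers pair the libraries is thus not settled, and the main fit did not use them. The replicate block gave 1 higher for the interaction, and with the length correction 6 higher and 0 lower for apoptotic cells. Leaving out, after seeing the data, the 3 libraries apart on the third principal component gave 5 and 0 for apoptotic cells, and 5 and 0 under the drug. The number set as a term, also added then, gave 11 and 21 for genotype.

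Leaving out each library in turn gave 4 to 7 higher and 0 to 1 lower for apoptotic cells, 3 to 6 and 5 to 10 for cytochalasin D, 5 to 10 and 0 to 2 for apoptotic cells under the drug, 0 to 3 and 0 to 2 for the interaction, and 8 to 11 and 15 to 20 for genotype. Members under 10 CPM are limited by depth.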
